A study of Homo sapiens with 3 samples.

Results

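The miR-181 family was followed through small RNA libraries of a parent cell line and of subclones that were picked for where they metastasize. The members are all rows named hsa-miR-181a, miR-181b, miR-181c or miR-181d with any copy or arm suffix, which gave 8 of the 1921 mature miRNA names in the tables. They comprise 4 guide arms (hsa-miR-181a-5p, hsa-miR-181b-5p, hsa-miR-181c-5p and hsa-miR-181d) and 4 partner arms from the opposite side of the hairpins (hsa-miR-181a-3p, hsa-miR-181a-2-3p, hsa-miR-181b-3p and hsa-miR-181c-3p). HCCLM3 is a human hepatocellular carcinoma (HCC) line. Its parent strain is labelled with low metastasis, subclone1 with a higher ability that is specific to lung, and subclone2 with dual metastasis to lung and celiac lymph node. All strains were grown in DMEM without a treatment named in the labels. The methods of the study describe its parental line as a highly metastatic, red fluorescent derivative of HCCLM3 and its subclones as populations grown from single cells of lung or lymph node metastases in nude mice, so each subclone is 1 clone. The labels do not say which of those clones subclone1 and subclone2 are. Each strain had 1 library, so no value below has a replicate check and every ratio compares libraries, not conditions.

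The members of this family are made from long primary transcripts, which are cut to hairpins in the nucleus and to short duplexes in the cytoplasm. The arm that is loaded into an Argonaute protein, the guide, then pairs with messenger RNAs mainly through bases 2 to 8, its seed, and lowers their translation and stability. In the immune system miR-181a is known for tuning the strength of T cell receptor signals. In liver cancer the family is known from EpCAM-positive cells with stem cell features and as a group of miRNAs that respond to TGF-beta.

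The guide arms are shown here because they share a seed while the rest of their letters decides to which name a read is assigned. RefSeq sequences were found for 8 of the 8 rows, hsa-miR-181d being matched to hsa-miR-181d-5p. Capitals mark the seed, and all are written 5′ to 3′.
hsa-miR-181a-5p: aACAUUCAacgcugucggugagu
hsa-miR-181b-5p: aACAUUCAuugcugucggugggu
hsa-miR-181c-5p: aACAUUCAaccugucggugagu
hsa-miR-181d: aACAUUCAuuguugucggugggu

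The 4 guides thus carry the seed ACAUUCA. Counted from 1 at the 5′ end, hsa-miR-181a-5p differs from hsa-miR-181b-5p at 3 bases (A9U, C10U and A21G). hsa-miR-181b-5p differs from hsa-miR-181d at 1 base (C12U), and hsa-miR-181c-5p equals hsa-miR-181a-5p with 1 base removed. The mismatches allowed when reads were matched are not given in the sources used here, so the division of reads between miR-181b and miR-181d and between miR-181a and miR-181c is uncertain. How a read that matches several names was counted is not given either, and bears on the sum of the 4 guides as well. Among the other listed names with a RefSeq sequence, 1 has the same seed. This was hsa-miR-4262, which had 0 counts in every library. Levels are given as CPM, that is counts per 1e+06 counts of a library, and a count of 0 allows up to 0.380 CPM for the parent, 0.840 for subclone1 and 0.657 for subclone2 (3 counts each).

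The partner arms carry other seeds and are shown because they tell apart hairpins that give the same guide.
hsa-miR-181a-3p: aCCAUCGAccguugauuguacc
hsa-miR-181a-2-3p: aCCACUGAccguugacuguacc
hsa-miR-181c-3p: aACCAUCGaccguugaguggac
hsa-miR-181b-3p: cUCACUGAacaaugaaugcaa

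hsa-miR-181a-3p and hsa-miR-181a-2-3p differ at 3 bases (U5C, C6U and U16C), whereas hsa-miR-181a-3p and hsa-miR-181c-3p share a run of 15 bases. The guide of miR-181a is made from hairpins on chromosomes 1 and 9, and its partner arm differs between them. In the hairpins below (RefSeq, GRCh38.p14) capitals mark the 5p and the 3p arm.
MIR181A1, chr1:198859044-198859153, minus strand: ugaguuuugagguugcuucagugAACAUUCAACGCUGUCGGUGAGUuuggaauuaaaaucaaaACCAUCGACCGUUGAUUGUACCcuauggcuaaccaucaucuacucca
MIR181A2, chr9:124692442-124692551, plus strand: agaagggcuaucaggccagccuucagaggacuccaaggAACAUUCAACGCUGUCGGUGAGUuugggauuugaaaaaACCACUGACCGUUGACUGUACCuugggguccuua

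The 6 hairpins of the family lie as pairs in 3 places. On chromosome 1 MIR181B1 (198858873 to 198858982) lies 61 bases from MIR181A1, both in an intron of the non-coding host gene MIR181A1HG. On chromosome 9 MIR181A2 is followed after 1158 bases by MIR181B2 (124693710 to 124693798), both in an intron of MIR181A2HG and antisense to an intron of NR6A1, which encodes a nuclear receptor. On chromosome 19 MIR181C (13874699 to 13874808, plus strand) lies 66 bases before MIR181D (13874875 to 13875011), both in an intron of NANOS3, a germ cell gene, in GENCODE release 29. The count tables hold no coordinates. The guides of miR-181a and miR-181b therefore add up 2 places each, while miR-181c, miR-181d and the listed 3p arms can be tied to 1 place.

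The libraries held 3570864 to 7902438 counts, and 10 CPM stood for 35.7 to 79.0 counts. Of the 8 members, 6 averaged 10 CPM or more in every comparison and were kept, and hsa-miR-181b-3p and hsa-miR-181c-3p were not. Intervals are exact 95% intervals of the counts, and cover counting error only since each strain had 1 library. Reads carry no molecular identifiers here, so copies of the same molecule count as separate reads and the intervals can be too narrow. The hepatocyte miRNA hsa-miR-122-5p was low, with 6.71 CPM in the parent (53 counts), 5.32 in subclone1 (19 counts) and 3.94 in subclone2 (18 counts). hsa-miR-885-5p was at 0. The sum of the 5 hepatocyte names, mostly hsa-miR-192-5p, did not follow hsa-miR-122-5p. It was 18646 CPM for the parent, 60529 for subclone1 and 69340 for subclone2. The 5 blood cell names summed to 0.633, 1.68 and 1.31 CPM in that order, with hsa-miR-142-3p at 0. The 5 muscle and stroma names summed to 8.60, 23.8 and 8.10 CPM, so they were highest in subclone1, mostly through hsa-miR-1 (21.6 CPM there). The part of such cells in the values below was not tested. Fewer cells that make a miRNA and less of it per cell cannot be told apart in such bulk libraries.

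hsa-miR-181a-5p was the most abundant member in every library, with 1849 CPM in the parent (14608 counts), 1957 in subclone1 (6989 counts) and 1224 in subclone2 (5591 counts). By count it stood at place 26, 23 and 27 of all names. It was lower in subclone2 than in the other libraries, which lay close to each other. hsa-miR-181b-5p had 769 CPM in the parent (6077 counts), 769 in subclone1 (2746 counts) and 523 in subclone2 (2391 counts). It showed the same order, with subclone2 below the other libraries.

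The members from chromosome 19 followed another order. hsa-miR-181d had 192 CPM in the parent (1516 counts), 321 in subclone1 (1147 counts) and 256 in subclone2 (1169 counts). The parent was therefore the lowest library and subclone1 the highest, and no pair of their intervals overlapped (182 to 202, 303 to 340 and 241 to 271 CPM). hsa-miR-181c-5p, the scarcest guide, had 18.98 CPM in the parent (150 counts, interval 16.1 to 22.3), 36.4 in subclone1 (130 counts, 30.4 to 43.2) and 20.1 in subclone2 (92 counts, 16.2 to 24.7). It was high in subclone1, and the parent and subclone2 could not be told apart at this depth.

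The partner arms were scarcer than their guides, in contrast to the equal amounts in which a duplex holds both. hsa-miR-181a-2-3p, from chromosome 9, had 66.1 CPM in the parent (522 counts), 43.1 in subclone1 (154 counts) and 27.6 in subclone2 (126 counts). It was highest in the parent and lowest in subclone2, without overlap of the intervals. hsa-miR-181a-3p, from chromosome 1, had 29.4 CPM in the parent (232 counts), 36.7 in subclone1 (131 counts) and 32.4 in subclone2 (148 counts), with intervals that overlapped. hsa-miR-181c-3p had 3.16, 4.48 and 2.63 CPM on 25, 16 and 12 counts, and hsa-miR-181b-3p had 2.91, 1.96 and 1.53 CPM on 23, 7 and 7 counts. At these counts no difference in either was detectable.

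**Figure D1:**
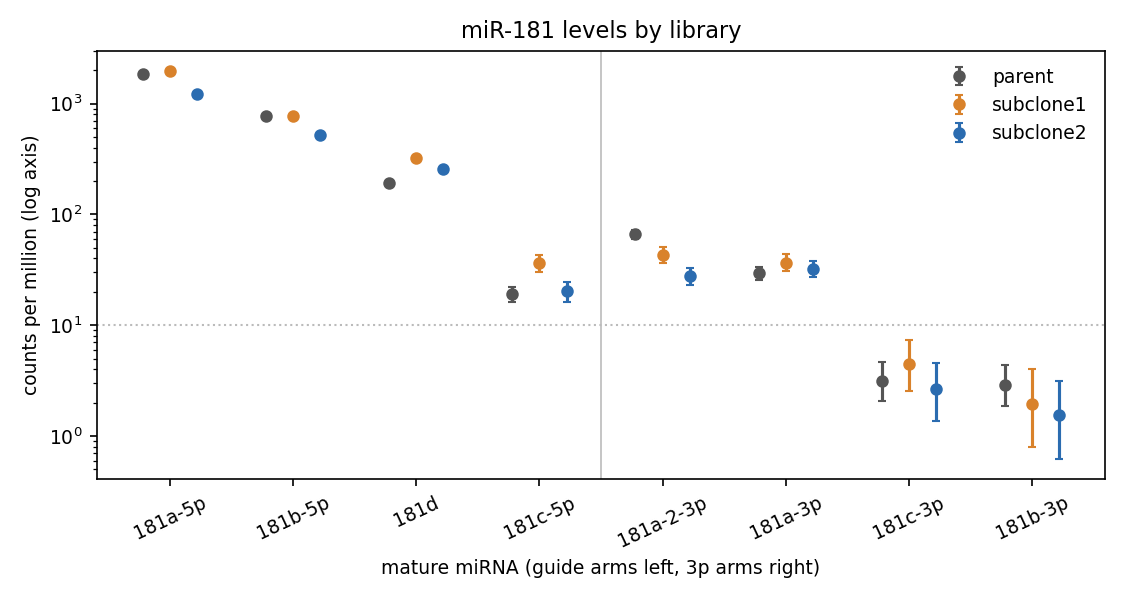
Level of each miR-181 row in CPM (log axis) in the parent, subclone1 and subclone2, with guide arms left and 3p arms right of the vertical line; bars are exact 95% counting intervals and the dotted line marks 10 CPM. hsa-miR-181a-5p and hsa-miR-181b-5p are lowest in subclone2, hsa-miR-181d is lowest in the parent, and hsa-miR-181a-2-3p has 66.1, 43.1 and 27.6 CPM.

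The order miR-181a-5p, miR-181b-5p, miR-181d held in each library. Below them the order changed. In the parent hsa-miR-181a-2-3p lay above hsa-miR-181a-3p, which lay above hsa-miR-181c-5p. In subclone1 the intervals of these neighbours overlapped (36.6 to 50.5, 30.7 to 43.5 and 30.4 to 43.2 CPM). In subclone2 hsa-miR-181a-3p (27.4 to 38.1 CPM) overlapped with hsa-miR-181a-2-3p (22.98 to 32.8 CPM), which overlapped with hsa-miR-181c-5p. Adapter ligation favours some ends over others, so levels of different miRNAs are read counts and not molar amounts.

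The first comparison asked which members differed between subclone1, tropic to lung, and its parent. hsa-miR-181c-5p and hsa-miR-181d were higher, with log2 ratios of 0.94 (interval 0.59 to 1.29) and 0.74 (0.63 to 0.86), or 1.92 and 1.67 times the parent. hsa-miR-181a-5p and hsa-miR-181b-5p lay close to the parent, with 0.082 (0.041 to 0.12) and 0.00014 (-0.066 to 0.065). Of the partner arms, hsa-miR-181a-2-3p was lower (-0.61, interval -0.88 to -0.35) and hsa-miR-181a-3p had 0.32 (0.0012 to 0.64), which with TMM scaling became 0.26 with an interval that included 0 (-0.060 to 0.58).

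A miRNA was called when it differed at least 2-fold and its interval excluded 1. By this rule 0 of the 6 kept members were called in subclone1, while 13.0% of all 192 kept miRNAs were (9.90% higher and 3.12% lower). The intervals of 5 of 6 members excluded 1, beside 68.8% of all kept miRNAs. The median log2 ratio was 0.20 over the members and 0.017 over all kept miRNAs. Among the 191 other kept miRNAs, 22 had a higher ratio than hsa-miR-181c-5p, 28 a higher ratio than hsa-miR-181d and 18 a lower ratio than hsa-miR-181a-2-3p. The central 80% of all ratios ran from -0.61 to 0.97.

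Next, subclone2, with tropism to lung and lymph node, was compared with the parent. hsa-miR-181a-5p and hsa-miR-181b-5p were lower by nearly the same factor, with log2 ratios of -0.59 (-0.64 to -0.55) and -0.55 (-0.62 to -0.49), or 0.662 and 0.681 times the parent. hsa-miR-181d was higher (0.42, interval 0.30 to 0.53), and for hsa-miR-181c-5p no difference was detectable (0.088, -0.31 to 0.47). hsa-miR-181a-2-3p had 0.419 times its level in the parent (log2 -1.26, -1.55 to -0.98), while hsa-miR-181a-3p had 1.10 times (0.14, -0.17 to 0.45).

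hsa-miR-181a-2-3p was the 1 member of the 6 that was called, and 10.7% of all 187 kept miRNAs were called in either direction, 5.88% as higher and 4.81% as lower. Only 6 of the 186 other kept miRNAs had a lower ratio. The intervals of 4 of 6 members excluded 1, against 69.5% of all. The median of all kept miRNAs was -0.15, and TMM scaling, which assumes that most miRNAs do not differ, moved all ratios up by 0.17. Relative to that median, hsa-miR-181a-5p had -0.44, hsa-miR-181b-5p -0.40, hsa-miR-181d 0.57 and hsa-miR-181a-2-3p -1.10. The ratios of both subclones to the parent share the parent library, so they are given side by side without a measure of their likeness.

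The subclones, whose labels differ in lymph node metastasis, were then compared directly. This sets 1 clone against another, so tropism and other differences between the clones cannot be told apart. Counting either direction, the intervals of 5 of the 6 kept members excluded 1, beside 59.7% of all 191 kept miRNAs. These 5 members were all lower in subclone2. The matching share of all kept miRNAs with intervals below 1 was not counted, so this one-sidedness has no background beside it. The median log2 ratio of the 6 was -0.60 beside -0.17 for all kept miRNAs. The largest difference was in hsa-miR-181c-5p (-0.85, interval -1.26 to -0.46), followed by hsa-miR-181a-5p (-0.68, -0.73 to -0.63), hsa-miR-181a-2-3p (-0.64, -0.996 to -0.30) and hsa-miR-181b-5p (-0.55, -0.63 to -0.48). hsa-miR-181d had -0.33 (-0.45 to -0.21) and hsa-miR-181a-3p -0.18 (-0.53 to 0.17). By the 2-fold rule 0 of 6 members were called, beside 5.76% of all kept miRNAs (1.57% higher and 4.19% lower). TMM scaling moved all ratios up by 0.23. hsa-miR-181a-3p then turned to 0.052 (-0.30 to 0.40), and to 0.034 with median-of-ratios factors. The interval of hsa-miR-181d with TMM scaling included 1 (-0.096, -0.21 to 0.023), and relative to the median of all miRNAs its log2 ratio was -0.16.

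**Figure D2:**
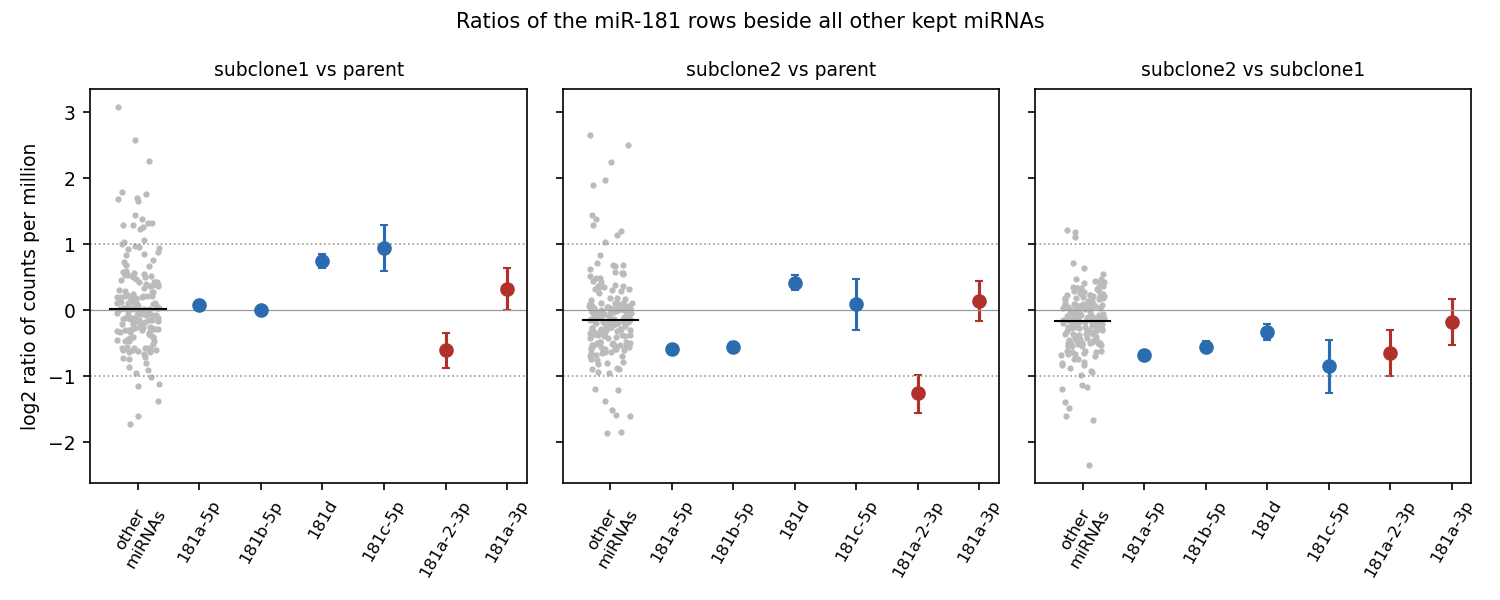
log2 ratios of CPM in the comparisons of subclone1 with parent, subclone2 with parent and subclone2 with subclone1. Gray points are all other kept miRNAs with the median of all kept miRNAs as a black line, blue points the guide arms and red points the 3p arms of miR-181 with exact 95% counting intervals, and dotted lines mark 2-fold; hsa-miR-181a-2-3p in subclone2 against the parent (-1.26) is the one member point called beyond them.

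The seed shared by the guides makes their sum a measure of the family. Together they reached 2828 CPM (parent), 3084 CPM (subclone1) and 2023 CPM (subclone2). The sum was 1.09 times the parent in subclone1 (interval 1.07 to 1.12), 0.715 times in subclone2 (0.698 to 0.733), and 0.656 times subclone1 in subclone2 (0.638 to 0.675). Against the parent, 76 of 192 kept miRNAs had a higher ratio than this sum in subclone1, and 49 of 187 a lower ratio in subclone2. Between the subclones 31 of 191 kept miRNAs had a lower ratio than the sum. Most of the sum was miR-181a-5p and miR-181b-5p, with 20685 of 22351 counts in the parent.

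The makeup of the family was described by setting the guides against each other. The ratio of miR-181a-5p plus miR-181b-5p to miR-181c-5p plus miR-181d was 12.4 for the parent, 7.62 for subclone1 and 6.33 for subclone2. This ratio needs no scaling, since the library total cancels. Both subclones thus had a larger part of c and d than the parent. Expressed as a ratio of ratios, subclone1 had 0.614 times the parent (interval 0.568 to 0.664), subclone2 0.510 times (0.471 to 0.551), and subclone2 0.830 times subclone1 (0.763 to 0.903). The levels behind it differed between the subclones. In subclone1 the a and b sum was close to the parent (2726 against 2618 CPM) and the c and d sum was higher (358 against 211 CPM). In subclone2 the a and b sum was lower (1747 CPM) and the c and d sum was again higher (276 CPM).

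As shares of the guides, hsa-miR-181d went from 6.78% in the parent (6.46 to 7.12) to 10.4% for subclone1 (9.85 to 11.0) and 12.6% for subclone2 (11.98 to 13.3). hsa-miR-181c-5p held 0.671%, 1.18% and 0.995%. hsa-miR-181a-5p held 65.4%, 63.5% and 60.5%, and hsa-miR-181b-5p 27.2%, 24.9% and 25.9%. In percent of the guides, most of the change in makeup therefore lay in hsa-miR-181d. The log2 ratio of ratios to the parent was -0.70 in subclone1 and -0.97 in subclone2. Without hsa-miR-181d these values were -0.88 and -0.67, so hsa-miR-181c-5p also shifted against a and b. With hsa-miR-181d left out, the log2 ratio of ratios between the subclones turned from -0.27 to 0.21 with an interval that included 0 (-0.19 to 0.62), so the difference between the subclones depended on hsa-miR-181d.

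Guides of the same place and guides of different places were then set in pairs. The ratio of miR-181a-5p to miR-181b-5p, which are paired on chromosomes 1 and 9, was 2.40, 2.55 and 2.34 in parent, subclone1 and subclone2. That of miR-181c-5p to miR-181d, paired on chromosome 19, was 0.0989, 0.113 and 0.0787. Its change between the subclones was 0.695 times (0.519 to 0.926), on 130 counts of miR-181c-5p in subclone1 and 92 in subclone2. That of miR-181d to miR-181b-5p was 1.17 times (1.06 to 1.29). Which of these changes was larger in size cannot be told within counting error. The counts of miR-181d were 24.9%, 41.8% and 48.9% of those of miR-181b-5p in parent, subclone1 and subclone2, a change of 1.67 times (1.53 to 1.83) and 1.96 times (1.79 to 2.15) against the parent. The counts of miR-181c-5p were 1.03%, 1.86% and 1.65% of those of miR-181a-5p. These are the pairs whose sequences are most alike. The part of misassigned reads in these percentages was not tested.

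**Figure D3:**
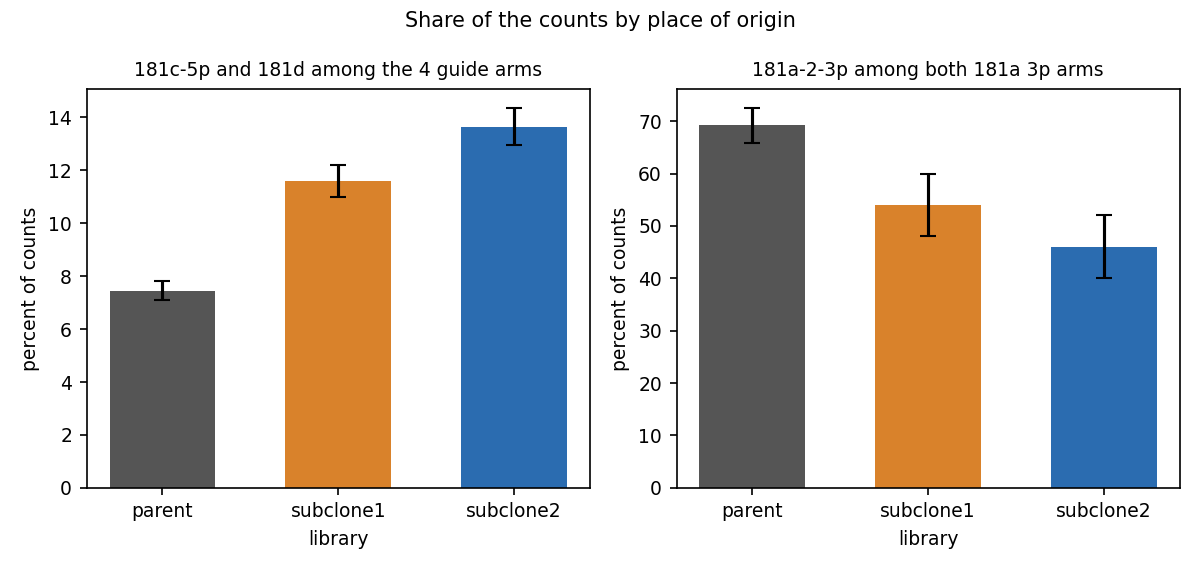
Percent of the 4 guide arms that was miR-181c-5p or miR-181d (left) and percent of both miR-181a 3p arms that was miR-181a-2-3p, from chromosome 9 (right), in each library; bars carry exact 95% counting intervals. The left share goes from 7.45% in the parent to 11.6% and 13.6% in the subclones, and the right share from 69.2% to 54.0% and 46.0%.

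The partner arms gave a view of the separate places of miR-181a. Of the reads of both miR-181a 3p arms, hsa-miR-181a-2-3p from chromosome 9 held 69.2% in the parent (65.8 to 72.5), 54.0% for subclone1 (48.1 to 59.9) and 46.0% for subclone2 (40.0 to 52.1). The ratio of the chromosome 9 to the chromosome 1 arm was 2.25, 1.18 and 0.851. Against the parent it was 0.523 times as large for subclone1 (0.391 to 0.698) and 0.379 times for subclone2 (0.282 to 0.508). The difference between the subclones was within counting error (0.725 times, 0.512 to 1.02). Both hairpins give the guide hsa-miR-181a-5p. Relative to the parent, subclone1 had 1.06 times the guide, 0.654 times the chromosome 9 arm and 1.25 times the chromosome 1 arm. For subclone2 these values were 0.662, 0.419 and 1.10 times. Relative to subclone1, subclone2 had 0.625 times the guide, 0.640 times the chromosome 9 arm and 0.883 times the chromosome 1 arm.

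Arm use, the ratio of the 3p to the 5p arm, was therefore set beside that of 72 other miRNAs with at least 30 counts in both arms. For miR-181a and miR-181b the 5p counts pool hairpins of different places, while each 3p arm comes from a single hairpin. Their ratios thus also carry the balance between hairpins, and the part of that balance was not tested. Per 100 reads of hsa-miR-181a-5p the parent had 3.57 of hsa-miR-181a-2-3p, subclone1 2.20 and subclone2 2.25. For hsa-miR-181a-3p the numbers were 1.59, 1.87 and 2.65. The miR-181a-2-3p ratio changed by a log2 of -0.69 (-0.97 to -0.43) in subclone1 and -0.66 (-0.96 to -0.38) in subclone2 against the parent. The miR-181a-3p ratio changed by 0.24 (-0.084 to 0.56) and 0.74 (0.43 to 1.04). Between the subclones the changes were 0.033 (-0.32 to 0.39) for miR-181a-2-3p and 0.50 (0.14 to 0.85) for miR-181a-3p. With both 3p arms added, the change was -0.34 (-0.55 to -0.14) in subclone1 and -0.073 (-0.28 to 0.13) in subclone2.

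By the 2-fold rule 0 of the 4 miR-181 ratios were called in any comparison. Among the other miRNAs 9.72% were called for subclone1 and 12.5% for subclone2 when set against the parent, and 11.1% between them. The central 80% of their changes ran from -0.64 to 0.89, from -0.96 to 0.84 and from -1.19 to 0.89. The miR-181a-2-3p ratio in subclone1 thus lay just outside the central range, and the remaining changes of both miR-181a arms inside it. The 3p arms of miR-181b and miR-181c were too scarce, and their intervals spanned 1 in all comparisons.

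**Figure D4:**
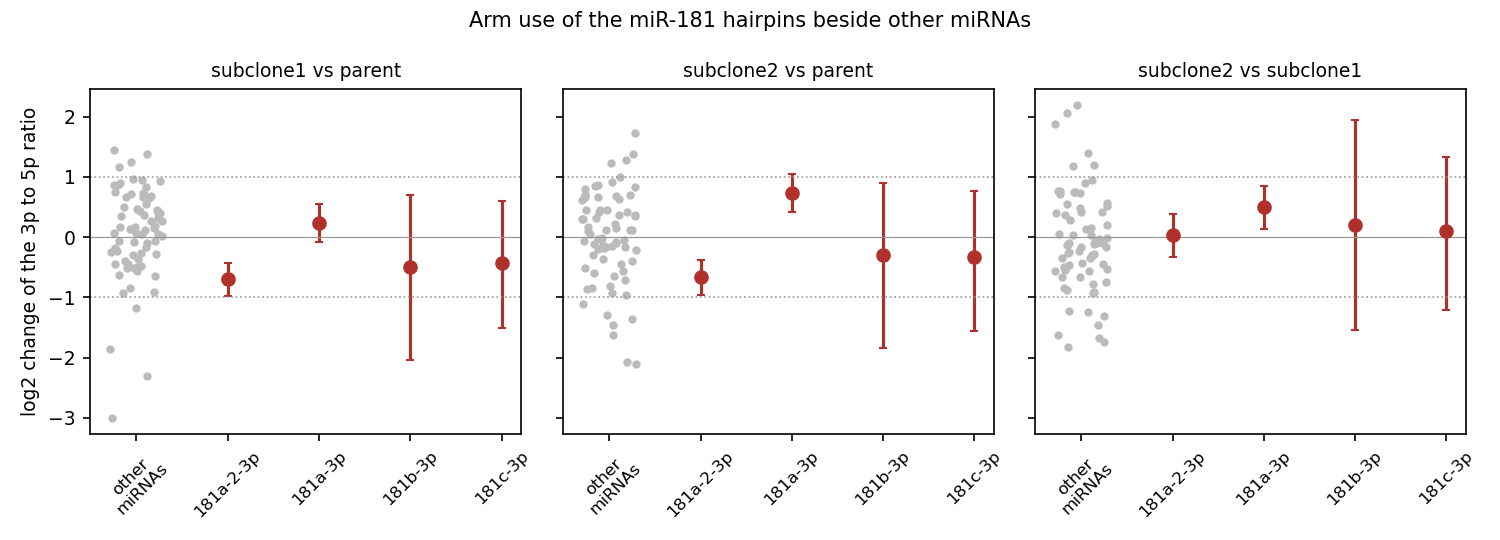
Change of the 3p to 5p ratio on a log2 scale in the comparisons of subclone1 with parent, subclone2 with parent and subclone2 with subclone1. Gray points are 72 other miRNAs, red points the miR-181 arms with exact 95% counting intervals, and dotted lines mark 2-fold; against the parent miR-181a-2-3p lies below 0 (-0.69 and -0.66) and miR-181a-3p above it (0.24 and 0.74), all within 2-fold.

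The miRNAs with the most similar pattern were sought by the distance between pairs of log2 ratios against the parent, among 186 other miRNAs that averaged 10 CPM or more across the 3 libraries. Nearest to the sum of the guides was hsa-miR-125b-2-3p, a partner arm of miR-125b (0.11 in subclone1 and -0.52 in subclone2, distance 0.043). The counting intervals of hsa-miR-125b-2-3p (-0.30 to 0.51 and -0.97 to -0.10) were far wider than this distance. The counts therefore do not settle its place as the nearest. hsa-miR-365a-3p and hsa-miR-365b-3p, whose counts are identical, followed at 0.15 (0.031 and -0.60). Then came hsa-miR-21-3p, the partner arm of the abundant miR-21 (0.11 and -0.64), and hsa-miR-26b-5p (-0.016 and -0.55). Nearest to the called hsa-miR-181a-2-3p were hsa-miR-146b-5p (-0.41 and -1.20, distance 0.21), hsa-miR-222-3p (-0.60 and -0.95) and hsa-miR-106b-5p (-0.63 and -0.94). This likeness rests on 2 ratios per miRNA, which share the parent library.

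Last, lists of miRNAs with related roles were examined. Of 11 miRNAs tied to TGF-beta and the epithelial-mesenchymal transition, 7 were kept. Of these 0 were called for subclone1, 1 was called higher for subclone2 relative to the parent (hsa-miR-200a-3p, which holds cells in the epithelial state, log2 1.13) and 0 between the subclones. Over all kept miRNAs 9.90%, 5.88% and 1.57% were called higher. The medians of the list were 0.51, 0.044 and 0.0096, beside 0.017, -0.15 and -0.17 for all. The value of 0.51 was the ratio of hsa-miR-200c-3p. Since the list also holds miRNAs that keep the epithelial state, its medians give no direction for the transition. Between the subclones hsa-miR-27a-3p differed most (-0.68), followed by hsa-miR-200a-3p (0.44) and hsa-miR-23a-3p (-0.23). Of 6 miRNAs of the miR-17-92 cluster, which is active in progenitor cells, 4 were kept. Relative to the parent 2 were called lower for subclone1 and 3 for subclone2, and 0 between both subclones, where 3.12%, 4.81% and 4.19% of all kept miRNAs were. The medians of the list were -0.94, -1.53 and -0.34, beside the same medians for all. Between the subclones hsa-miR-19b-3p had -0.99, hsa-miR-20a-5p -0.49 and hsa-miR-17-5p -0.19.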

How the data were processed

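Small RNA was measured in 3 libraries, 1 per strain, made per the labels with the Illumina TruSeq Small RNA kit from 1 ug of Trizol RNA. The authors deposited raw read counts per mature miRNA name. Their processing notes name CASAVA 1.4 and hg19, and the trimming, aligner, mismatch limit and miRBase release are not given in the sources used here. Counts were scaled to CPM by the library total (3570864 to 7902438). A name was kept if it averaged 10 CPM or more across both libraries of a comparison. log2 ratios had 0.5 counts added. Exact 95% intervals were Clopper-Pearson for levels and shares, conditional binomial for ratios, and conditional for ratios of ratios (scipy 1.17.1). They cover counting error only, and no test between strains was made. A call needed at least 2-fold and an interval excluding 1. The rule was also run on simulated counts that held counting error only. That run does not cover differences between libraries of the same strain.

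The named miRNAs are all miR-181 rows, others with their seed, the 5 nearest to the guide sum and 3 nearest to each called member, and up to 3 members of each list. The members and lists were chosen with earlier results of these data known. Alternatives were TMM factors (edgeR 4.0.16), median-of-ratios factors (DESeq2 1.42.0), a total that omits the 10 most abundant names, 5 counts added, other minimum levels, a 1.5-fold threshold and other sums of members. Sequences are from RefSeq (GRCh38.p14), and positions of all 6 hairpins were checked to equal those of GENCODE release 29.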

Additional observations from a re-analysis of the deposited data

Results flagged for a closer look

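Values that lay on opposite sides of the parent in the subclones were picked out, where both counting intervals excluded 1. hsa-miR-181a-5p had a log2 ratio to the parent of 0.082 in subclone1 and -0.59 in subclone2. The sum of miR-181a-5p and miR-181b-5p had 0.059 and -0.58, and the sum of the 4 guides 0.12 and -0.48. The difference between the subclones was not tested, as each has 1 library. Under the other scalings the ratio of hsa-miR-181a-5p in subclone1 was 0.021 (TMM), 0.016 (median of ratios) and 0.011 (total without the most abundant miRNAs), each with an interval that included 1. For the sum of miR-181a-5p and miR-181b-5p in subclone1 it turned to -0.0029, -0.0077 and -0.013 in the same order, again with intervals that included 1, so its opposite direction did not hold under these scalings, which were applied to it after its values were seen.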

How the results depend on the processing

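No paired analysis was possible because the strains have 1 library apiece, which also leaves no library to omit. Of 18 alternative values for the guide sum all kept their direction, and 12 lay outside the counting interval of the reported value. In the order subclone1 against parent, subclone2 against parent and subclone2 against subclone1 (reported log2 0.12, -0.48 and -0.61), the sum had 0.063, -0.31 and -0.38 with TMM factors, 0.058, -0.34 and -0.39 with median-of-ratios factors, 0.053, -0.41 and -0.46 with the total without the 10 most abundant miRNAs, and 0.20, -0.29 and -0.49 without miR-181a-5p. For the ratio of a and b to c and d (reported -0.70, -0.97 and -0.27), leaving out miR-181d gave -0.88, -0.67 and 0.21, and the last of these turned its direction; the other alternatives stayed within the interval. Of 96 values for single members 91 kept their direction. With a 1.5-fold threshold 3, 2 and 3 members were called in place of 0, 1 and 0. Over all miRNAs (25, 20 and 11 called) a minimum of 100 CPM gave 7, 5 and 2 calls, no minimum 67, 75 and 33, and the 1.5-fold threshold 56, 50 and 36. These counts follow from the thresholds themselves. Calls of members were the same under every scaling and with 5 counts added. Depth limits the 3p arms most, with 7 to 25 counts for those of miR-181b and miR-181c.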

Other observations

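Pairs of arms that tell apart the copies of another hairpin were looked for after the values of miR-181a had been seen. Only copies named by a number before the arm were searched, with at least 30 counts for each arm over the libraries. The only pair found this way was hsa-miR-30c-1-3p and hsa-miR-30c-2-3p, from the copies of the miR-30c hairpin. Their counts were 65 and 488 in the parent, 24 and 398 in subclone1, and 26 and 410 in subclone2. Their ratio changed by a log2 of -1.12 (interval -1.91 to -0.42) in subclone1 and -1.05 (-1.81 to -0.36) in subclone2 against the parent. Both changes were past 2-fold, as was that of the miR-181a arms in subclone2, where the log2 change was -1.40 (-1.83 to -0.98). In subclone1 the change of the miR-181a arms was -0.94 (-1.35 to -0.52). Copies named by a letter were not searched, and the change of their ratios was not computed. Among these are hsa-miR-365a-5p and hsa-miR-365b-5p, whose 3p partners have identical counts. Their log2 ratios to the parent were -0.33 and -0.041 in subclone1, and -0.50 and 0.25 in subclone2.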
